A study of Mus musculus with 7 samples.

Results

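Cartilage resists compression because its matrix holds water in a gel of aggrecan, a very large proteoglycan whose many sulfated sugar chains are anchored along threads of hyaluronan. Hyaluronan is made at the cell surface by hyaluronan synthases, aggrecan binds it through its amino-terminal globular domain, and a link protein locks that bond. In the growth plate, the cartilage in which long bones lengthen, this gel surrounds the columns of dividing and enlarging chondrocytes. Described here are 9 genes, taken by gene symbol, of the 43346 genes with allele counts. They are the hyaluronan-binding proteoglycans Acan and Vcan, the link proteins Hapln1 and Hapln3, the hyaluronan synthase Has2 and hyaluronan receptor Cd44, the small cartilage genes Snorc and Ucma, and Prg4, which encodes the joint lubricant lubricin.

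RNA came from the proximal and distal tibial growth plates of 7 male F1 mice, C57BL/6J × CAST/EiJ, killed at 21 d and given no treatment, which are numbered 1, 2, 3, 4, 5, 7 and 8 after the labels. All 7 animals belong to 1 condition, and in every cell of each the B6 and CAST chromosomes are read side by side. The questions are therefore how strongly each gene was expressed and whether the CAST or the B6 copy gave more RNA. On X-linked genes 90.2% to 91.6% of counts were B6, and on mitochondrial genes 99.98% to 99.99%. The B6 copy thus came from the mother in every mouse, and strain and parent of origin cannot be told apart.

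Depth ran from 14098019 counts in mouse 7 to 37849667 in mouse 5, and the 9 genes took 0.842% to 1.20% of it. All 12 cartilage markers, Col2a1 and Sox9 among them, had counts in every mouse, and their summed level was 62082 to 99468 counts per 1000000 counts (CPM). The labels call the tissue growth plate chondrocyte, but markers of other cells were present as well. Osteoblast markers summed to 73610 to 125736 CPM, erythroid markers to 7869 to 19283 CPM and muscle markers to 3359 to 7373 CPM. Most of the osteoblast sum was Col1a1 and Col1a2, and the highest of its other markers, Bglap, had 1383 to 1973 CPM. In such bulk RNA, fewer cells of a type and less RNA per cell cannot be told apart.

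Both Acan and Prg4 carry internal repeats in their coding sequence, which are shown because a read lying wholly in repeated sequence could be placed at several points of the same transcript. In the GRCm38 reference, which is the B6 sequence, the 24-base stretch that occurs most often reads 5′ to 3′ as follows, with no capitals because no base is singled out.

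Prg4: ccaaggagcctgaacccacaactc

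Acan: aggtctagagacttctgcctctgg

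The Prg4 stretch occurs 18 times in transcript ENSMUST00000164600, the first copy starting at base 1065 and the last at base 2331. The Acan stretch occurs 3 times in ENSMUST00000032835, the first copy starting at base 3001 and the last at base 3361. In Prg4, 8.45% of all 75-base stretches, the length of a read, occur more than once within the transcript. Only 0.366% of 21868 protein-coding genes had a share as high, while Acan and the other 7 genes had no repeated 75-base stretch. A second kind of sharing is between genes. On the opposite strand, Prg4 shares 132 of its 4292 75-base stretches with Tpr, and Has2 shares 38 of 4163 with the antisense gene Has2os. Whether counting used the strand of a read is not given in the sources used here, so reads of these pairs may be divided. No total of Prg4 was a whole number in any mouse, whereas Has2 had whole totals in 4 of 7 mice and the remaining 7 genes in all 7 (to a tolerance of 1e-04).

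To compare genes with each other, levels were expressed as CPM per kb of exon, summed over both alleles. On this scale Acan was the highest at 1070 ± 163 (SD, n = 7 mice), with 916 in the lowest mouse, a median of 1032 and 1379 in the highest. Snorc, a short transmembrane proteoglycan of chondrocytes, followed at 381 ± 102, and Ucma, a secreted Gla-rich protein of the upper growth plate, at 241 ± 67.6. The cartilage link protein Hapln1 stood at 137 ± 23.4.

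The remaining genes were far lower on the same length-adjusted scale. Prg4 averaged 33.4 ± 13.1, Cd44 16.3 ± 1.49 and Vcan 5.16 ± 0.859 (SD, n = 7 for each). At the bottom were Has2 with 2.03 ± 0.299 and Hapln3 with 1.68 ± 0.361. The order Acan, Snorc, Ucma, Hapln1, Prg4, Cd44, Vcan, Has2 was the same in all 7 mice. Each step in it was tested on the log2 differences within mice by flipping their signs in all possible ways, a two-sided exact permutation test, and passed (p = 0.0156, the smallest that 7 mice allow).

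**Figure D1:**
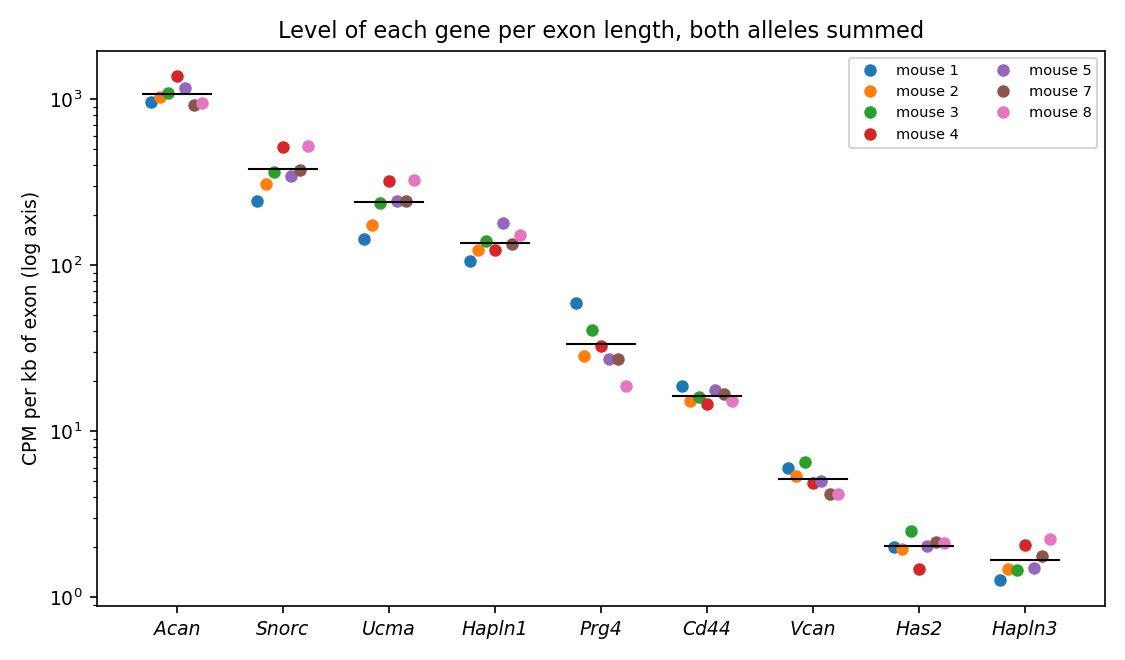
Level of each gene per exon length in each of the 7 mice, in CPM per kb of exon with both alleles summed, on a log axis. Points are mice and the black line is the mean. Acan lies between 916 and 1379, while Has2 and Hapln3 overlap near the bottom.

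The steps differed in size. Acan was 2.87-fold above Snorc, Snorc 1.59-fold above Ucma, and Ucma 1.72-fold above Hapln1. The widest gap, 4.29-fold, lay between Hapln1 and Prg4. Of the 8 neighbouring pairs tested, only Has2 and Hapln3 could not be ordered, since Has2 was 1.22-fold higher on average but above Hapln3 in just 5 of 7 mice (exact sign-flip permutation test, p = 0.156).

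The alleles of the 2 hyaluronan-binding proteoglycans leaned in opposite directions. Acan (ENSMUSG00000030607) lies at chr7:79053483-79115099 on the plus strand of GRCm38. Its B6 allele had 45011 counts in the lowest mouse, a median of 103122 and 154754 in the highest, and its CAST allele had 51403, 115530 and 176781. These ranges overlap because depth differed between mice, but within each mouse the CAST count was the larger. The CAST share was 53.2% ± 0.198 (SD, n = 7), and the log2 ratio of CAST to B6 lay between 0.16 in mouse 1 and 0.19 in mouse 2. This was a small difference that hardly varied between animals (mean 0.18 ± 0.0115, exact sign-flip permutation test, p = 0.0156).

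In the edgeR likelihood-ratio fit over all 21805 tested genes, which ignores which alleles share a mouse, the log2 fold change of Acan was 0.20 with an SE of 0.144. It did not reach the study's threshold of FDR 0.20 (FDR 0.378). With the mouse as a block in edgeR's quasi-likelihood test, the FDR was 4.48e-08. Both alleles of a mouse come from 1 animal, so the pairing is real, and the blocked value is given beside each gene whose call it changed.

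Vcan (ENSMUSG00000021614, chr13:89655312-89742509, minus strand) encodes versican, a relative of aggrecan found in many loose and embryonic tissues. Its B6 allele had 511 counts in the lowest mouse, a median of 1390 and 1597 in the highest, and its CAST allele 346, 910 and 1149. The B6 count was the larger within every mouse, with a B6 share of 59.7% ± 1.28 (SD, n = 7). The log2 ratio of CAST to B6 ran from -0.71 in mouse 8 to -0.47 in mouse 5, with a median of -0.56 and a mean of -0.57 ± 0.0772 (exact sign-flip permutation test, p = 0.0156). Versican was called as higher from B6 in the likelihood-ratio fit (log2 fold change -0.54, SE 0.118, edgeR FDR 4.81e-05).

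**Figure D2:**
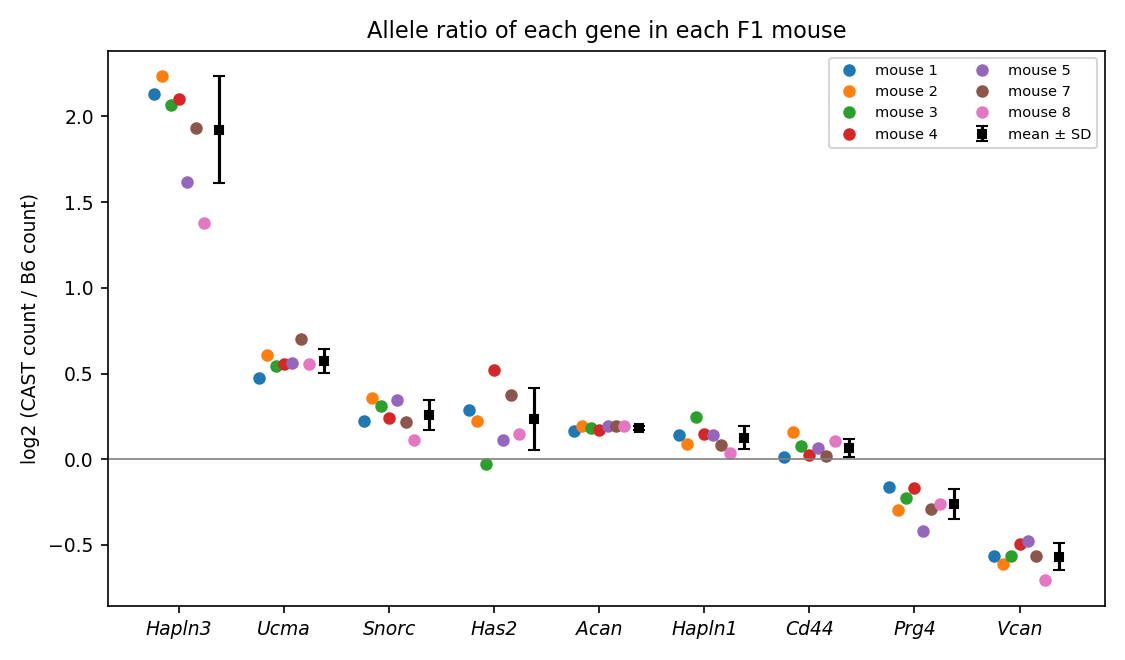
Log2 ratio of the CAST count to the B6 count for each gene in each of the 7 mice, with 0.5 added to both counts, and the mean ± SD over mice in black. Hapln3 lies between 1.38 and 2.23, Prg4 and Vcan lie below 0 in every mouse, and Has2 is the only gene with mice on both sides of 0.

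The largest allele difference of the 9 genes was in a link protein. Hapln3 (ENSMUSG00000030606, chr7:79115102-79131018, minus strand) encodes a link protein that is found outside cartilage as well, in vessel walls among other sites. Its B6 allele had 17.7 counts in the lowest mouse, a median of 26.8 and 51.7 in the highest, and its CAST allele had 69.3, 124 and 150. The lowest CAST count therefore lay above the highest B6 count. The CAST allele gave 79.2% ± 3.80 of the counts (SD, n = 7), a 3.79-fold difference.

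The Hapln3 log2 ratio was lowest in mouse 8 (1.38) and highest in mouse 2 (2.23), with a median of 2.07 (mean 1.92 ± 0.312, exact sign-flip permutation test, p = 0.0156). Mice 8 and 5, which had the lowest ratios, had the highest B6 counts, 51.7 and 48.7. The fit across all genes called Hapln3 at a log2 fold change of 1.91 (SE 0.216, edgeR FDR 5.78e-17). With totals of 87 to 199 counts per mouse, these ratios carry more counting error than those of Acan, Hapln1, Snorc or Ucma.

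Hapln1 (ENSMUSG00000021613, chr13:89539796-89611652, plus strand) encodes the cartilage link protein that fastens aggrecan to hyaluronan. Its B6 allele had 5401 counts in the lowest mouse, a median of 10409 and 18961 in the highest, and its CAST allele 5721, 10694 and 20955. The CAST count was larger in all 7 mice, by little. The log2 ratio was 0.04 in mouse 8, 0.14 at the median and 0.25 in mouse 3 (mean 0.13 ± 0.0658, exact sign-flip permutation test, p = 0.0156). The likelihood-ratio fit did not call it (log2 fold change 0.15, SE 0.132, edgeR FDR 0.532), while the quasi-likelihood fit with the mouse as a block did (FDR 0.00446).

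These genes form 2 neighbouring pairs of a proteoglycan and a link protein. On chromosome 7, Acan and Hapln3 run towards each other, and 2 bases separate their annotated ends. Within a mouse the log2 ratio of Acan was lower than that of Hapln3 by 1.74 ± 0.318 on average, and lower in 7 of 7 mice (exact sign-flip permutation test, p = 0.0156). On chromosome 13, Hapln1 and Vcan also run towards each other, with 43659 bases between them. Their log2 ratios had opposite signs in every mouse and differed by 0.69 ± 0.0668 (SD, n = 7, exact sign-flip permutation test, p = 0.0156). In neither pair, then, did the members share the size of the allele difference.

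Has2 (ENSMUSG00000022367, chr15:56665627-56694539, minus strand) encodes the main hyaluronan synthase of the embryonic skeleton. It had 54.1 B6 counts in the lowest mouse, a median of 113 and 156 in the highest, beside 71.8, 132 and 169 CAST counts. The CAST count was larger in 6 of 7 mice, with mouse 3 at a log2 ratio of -0.03 and mouse 4 highest at 0.52 (mean 0.23 ± 0.182, exact sign-flip permutation test, p = 0.0312). The likelihood-ratio fit placed Has2 just outside the threshold (log2 fold change 0.23, SE 0.126, edgeR FDR 0.206). Its FDR was 0.0444 with the mouse as a block, and 0.109 without mouse 3. The call of Has2 thus depended on the fit, as did those of Acan, Hapln1, Cd44, Snorc and Prg4.

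Cd44 (ENSMUSG00000005087, chr2:102811141-102901665, minus strand) encodes the main cell-surface receptor for hyaluronan and is expressed by chondrocytes, osteoclasts and blood cells alike. Its alleles were the most nearly balanced of the 9. The B6 allele had 797 counts in the lowest mouse, a median of 1443 and 2216 in the highest, and the CAST allele 809, 1552 and 2321. The log2 ratio was between 0.01 in mouse 1 and 0.16 in mouse 2 (mean 0.07 ± 0.0534, CAST larger in 7 of 7 mice, exact sign-flip permutation test, p = 0.0156).

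Summed over each library, autosomal genes had a log2 ratio of 0.0154 to 0.0375 (mean 0.0297), while the median gene among 11353 autosomal genes with at least 100 counts was at 0. After subtraction of each mouse's autosomal value, the Cd44 mean was 0.04 and CAST was larger in only 4 of 7 mice (exact sign-flip permutation test, p = 0.141). The same subtraction left the other 8 genes on the same side in as many mice as before. The likelihood-ratio fit did not call Cd44 (log2 fold change 0.09, SE 0.0752, edgeR FDR 0.507), and the blocked quasi-likelihood fit did (FDR 0.0135).

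Snorc and Ucma are both short, cartilage-restricted genes, with 722 and 884 bases of exon. Ucma (ENSMUSG00000026668, chr2:4976122-4985748, plus strand) had 1150 B6 counts in the lowest mouse, a median of 2352 and 3270 in the highest, beside 1869, 3432 and 4836 from CAST. The CAST allele gave 59.8% ± 1.15 of the counts (SD, n = 7), or 1.49-fold the B6 allele. Every mouse had a log2 ratio of at least 0.47, the value of mouse 1, and mouse 7 was highest at 0.70 (mean 0.57 ± 0.0695, exact sign-flip permutation test, p = 0.0156). The fit across all genes called it (log2 fold change 0.59, SE 0.212, edgeR FDR 0.0276).

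Snorc (ENSMUSG00000026258, chr1:87470271-87475482, plus strand) had 1750 B6 counts in the lowest mouse, a median of 3221 and 4267 in the highest, beside 2034, 3997 and 5267 from CAST. The CAST count was again larger in every mouse, but by less than for Ucma. The log2 ratio ran from 0.11 in mouse 8 to 0.36 in mouse 2 (mean 0.26 ± 0.0864, exact sign-flip permutation test, p = 0.0156). It was not called without the block (log2 fold change 0.27, SE 0.205, edgeR FDR 0.434) and was called with it in the quasi-likelihood test (FDR 0.000725).

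Prg4 (ENSMUSG00000006014, chr1:150449412-150466165, minus strand) is made mainly by superficial articular chondrocytes and the joint lining. Its B6 allele had 908 counts in the lowest mouse, a median of 1987 and 4083 in the highest, and its CAST allele 741, 1619 and 3650. The B6 count was larger in every mouse, with log2 ratios from -0.42 in mouse 5 to -0.16 in mouse 1 (mean -0.26 ± 0.0883, exact sign-flip permutation test, p = 0.0156). The likelihood-ratio fit did not call it (log2 fold change -0.22, SE 0.216, edgeR FDR 0.579), and the blocked quasi-likelihood fit did (FDR 0.00212). Part of its reads may belong to Tpr, which averaged 1320 counts. The part of those reads in the ratio was not tested.

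In all, the fit without a block called 3 of the 9 genes, beside 32.6% of the 21805 tested genes, a like share. Hapln3 and Ucma were called as higher from CAST, beside 15.4% of tested genes, and Vcan as higher from B6, beside 17.2%. With the mouse as a block all 9 were called, beside 42.7% of genes by the likelihood-ratio test and 37.6% by the quasi-likelihood test. The CAST and B6 counts were ordered the same way in all 7 mice for 8 of the 9 genes, beside 23.1% of tested genes, many of which had far fewer counts. The median log2 fold change of the 9 genes was 0.20, with 7 leaning to CAST and 2 to B6, while that of all tested genes was 0.01.

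Total levels also differed between mice, and here Prg4 varied most. Its level was lowest in mouse 8 at 79.7 CPM, had a median of 121 CPM and reached 253 CPM in mouse 1, a 3.17-fold span. The SD of its log2 CPM over mice, 0.523, was larger than for 98.9% of the 10831 genes compared, whose median SD was 0.194. Muscle markers were also highest in mouse 1, at 7373 CPM against a median of 4552 CPM, but were next highest in mouse 8, at 5841 CPM, where Prg4 was lowest. Endothelial markers were highest in mouse 1 (259 CPM) and next to lowest in mouse 8 (177 CPM). The 3 superficial zone and joint lining markers, Creb5, Gdf5 and Erg, were above 0 in every mouse. Their sum was lowest in mouse 8, at only 19.1 CPM, and highest in mouse 3. Mouse 1, where Prg4 was highest, had only the median sum, 21.2 CPM. Erg had the highest level of the 3 in every mouse. Gene by gene, Creb5 was highest in mouse 1 (3.92 CPM) and lowest in mouse 8 (2.32 CPM), the same extremes as Prg4. Gdf5, however, was highest in mouse 4 and lowest in mouse 7, and Erg was highest in mouse 7 and lowest in mouse 8. The part of these cell types in the Prg4 levels was not tested.

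The genes whose levels followed Prg4 most closely over the 7 mice were Rgs4, Cilp and Egr1, of which Cilp encodes a cartilage matrix protein. Likeness was measured as the root mean square difference in log2 CPM, each gene centred on its own mean, against 10830 protein-coding autosomal genes. For Prg4 these differences were 0.209, 0.218 and 0.239. None was as close as the nearest genes of the 8 others. The median difference from all genes compared also varied, from 0.165 for Cd44 to 0.487 for Ucma, with 0.485 for Prg4. Nearest differences of genes with unlike medians are therefore not on 1 scale.

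Snorc and Ucma were each other's closest match, with a root mean square difference of 0.0957 in log2 CPM. Snorc had 176 CPM in mouse 1, a median of 261 CPM and 375 CPM in mouse 8, and Ucma had 127, 214 and 287 CPM in its lowest, median and highest mouse. For both genes mouse 1 was lowest and mouse 8 highest, with mouse 4 next. Their SDs of log2 CPM, 0.387 and 0.430, exceeded those of 94.9% and 96.7% of genes. The low-level link protein Hapln3 had the same extremes, from 4.41 CPM in mouse 1 to 7.89 CPM in mouse 8.

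**Figure D3:**
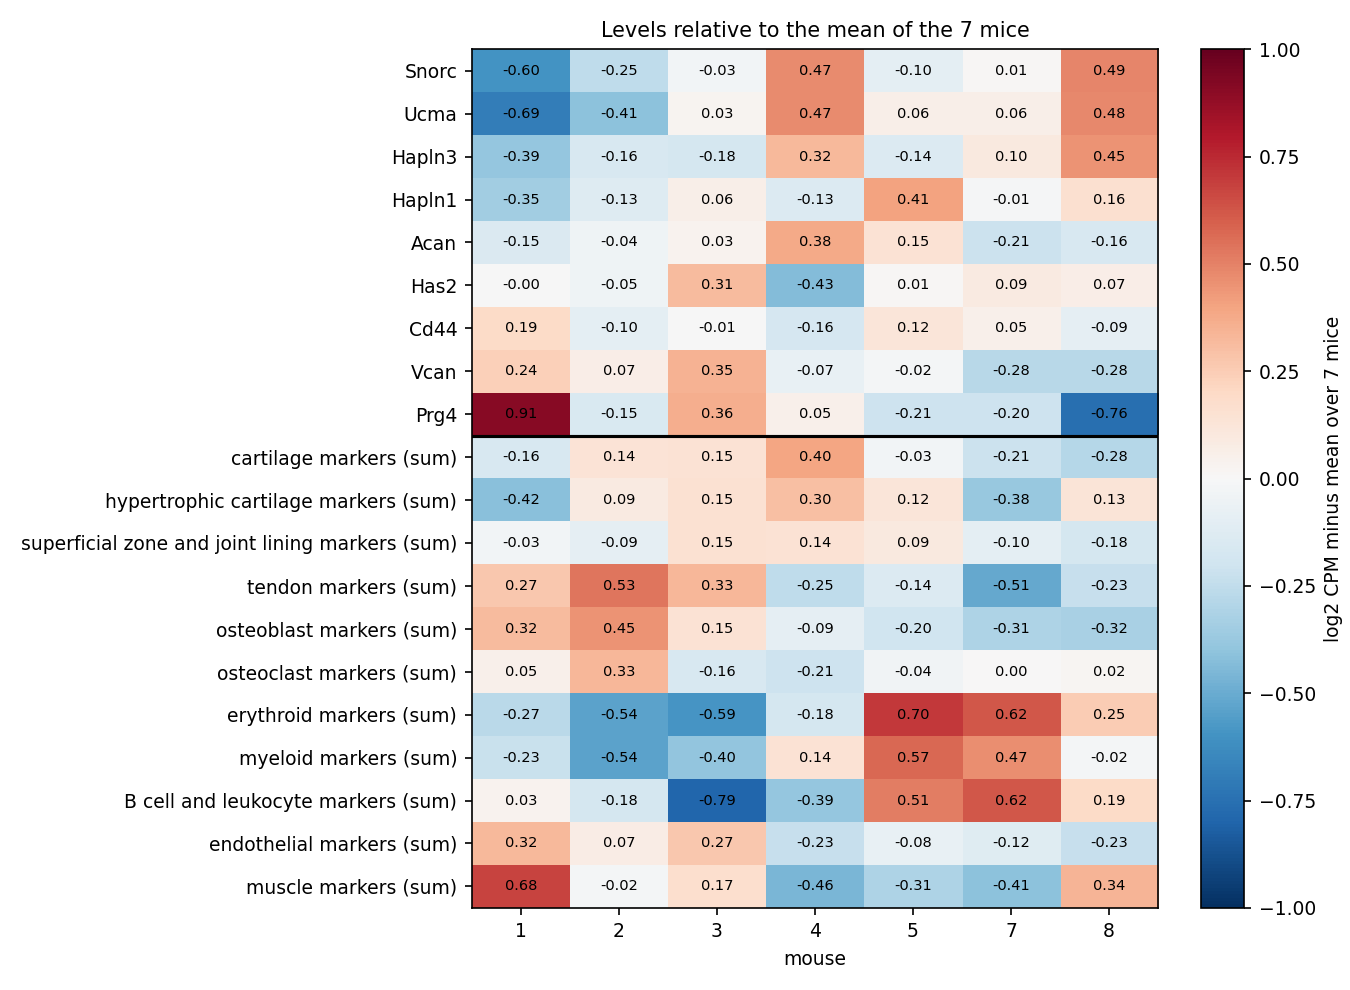
Log2 CPM of the 9 genes (above the line) and of the summed cell type marker lists (below it) in each mouse, each minus its own mean over the 7 mice. Snorc, Ucma and Hapln3 are lowest in mouse 1 and highest in mouse 8, and Prg4 is highest in mouse 1 and lowest in mouse 8.

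Transcript length moved with this pattern in some mice. The 220 genes with under 1000 bases of exon had a median centred log2 CPM of -0.20 in mouse 1 and 0.23 in mouse 8, again their lowest and highest mice. In mouse 4, where Snorc and Ucma both stood at 0.47 on this scale, they were at only 0.02. The nearest genes to Hapln3 were the short genes Rplp1, Il17b and Rpl36, of which Rplp1 and Rpl36 encode ribosomal proteins. Next to Ucma, the genes closest to Snorc were Mia, a secreted cartilage protein, and Il17b. After Snorc, the gene nearest to Ucma was Fxyd2, which has 4005 bases of exon. The cartilage marker sum, most of which was Col2a1, was highest in mouse 4 and lowest in mouse 8. Gene by gene, however, 7 of the 12 cartilage markers were lowest in mouse 1, while 5 were highest in mouse 4 and 3 in mouse 8. The hypertrophic markers were lowest in mouse 1 (2527 CPM) and highest in mouse 4 (4156 CPM). The part of transcript length or of cell makeup in the shared pattern was not tested.

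The matrix core, Acan and Hapln1, varied less than Prg4, Snorc and Ucma. Its SDs of log2 CPM, 0.208 for Acan and 0.242 for Hapln1, were still above the median of 0.194 over all genes compared. Acan ranged from 6839 CPM in mouse 7 to 10298 CPM in mouse 4, with a median of 7706 CPM, and mouse 4 also had the highest cartilage marker sum. Its closest match was Nid2, a basement membrane protein, at 0.0334. Hapln1 was lowest in mouse 1 (625 CPM) and highest in mouse 5 (1055 CPM), and Dctd was nearest at 0.0863. Aggrecan and its link protein thus peaked in different mice.

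Vcan was highest in mouse 3 (93.6 CPM) and lowest in mouse 8 (60.7 CPM), and its closest match was Flt1, a VEGF receptor of endothelial cells, at 0.0481. The endothelial markers summed to 177 to 259 CPM and were highest in mouse 1, with their part in the versican level not tested. Has2 ran from 6.28 CPM in mouse 4 to 10.6 CPM in mouse 3, with Gnai3 nearest at 0.0357. Cd44 was the steadiest of the 9, from 98.2 CPM in mouse 4 to 126 CPM in mouse 1. Its SD of log2 CPM, 0.130, was below the median of all genes, and Fancm was nearest at 0.0216.

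Around these genes lies a wider set that builds, binds and degrades hyaluronan and its proteoglycans, for which 38 other genes were listed. Of these, 33 passed the filter on low counts and 12 were called in the likelihood-ratio fit, 6 as higher from CAST and 6 as higher from B6. That is 36.4% beside 32.6% of all tested genes. Their median log2 fold change was 0.02, so the list as a whole leaned to neither allele.

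Among the link proteins, Hapln4, known from the brain, went the other way from Hapln3. It had 119 counts per mouse on average, and its B6 allele gave 90.8 ± 31.4 counts and its CAST allele 28.6 ± 9.05 (SD, n = 7). The B6 count was larger in 7 of 7 mice (log2 fold change -1.63, SE 0.185, edgeR FDR 1.54e-17). The other hyalectans were Bcan, with a log2 fold change of 0.07 (edgeR FDR 0.893), and Ncan, with a mean of only 6.57 counts. Ncan was called as higher from CAST without the block (edgeR FDR 0.145) but not with it (FDR 0.367 in the quasi-likelihood test), and CAST was larger in 4 of 7 mice.

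Enzymes that supply sugar precursors for hyaluronan and chondroitin sulfate were called in both directions. Ugdh, which makes UDP-glucuronic acid, was higher from B6 (log2 fold change -0.42, edgeR FDR 8.42e-05, 7 of 7 mice). Uap1, which makes UDP-N-acetylglucosamine, was higher from CAST (0.31, edgeR FDR 0.00505, 6 of 7 mice). The other synthases were scarce, Has1 with a mean of 114 counts and Has3 with 141, and neither was called (edgeR FDR 0.964 and 0.753).

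Genes of hyaluronan breakdown were likewise split. The hyaluronidase gene Hyal1 was higher from CAST (log2 fold change 0.54, edgeR FDR 0.00239, 6 of 7 mice), as was the scarce Hyal3 (0.65, edgeR FDR 0.0396). As in Prg4, no total of Hyal1 was a whole number in any mouse, and Hyal3 had whole totals in 1 of 7. The part of divided reads in these ratios was not tested. Hyal2 had a log2 fold change of -0.01 (edgeR FDR 1). Hexa, which encodes a subunit of a lysosomal hexosaminidase, was higher from B6 in 7 of 7 mice (-0.39, edgeR FDR 0.00291). Cemip, which encodes a hyaluronan-degrading protein, had more CAST counts in 7 of 7 mice. Its FDR was 0.283 without the block and 2.72e-05 with it in the quasi-likelihood test.

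**Figure D4:**
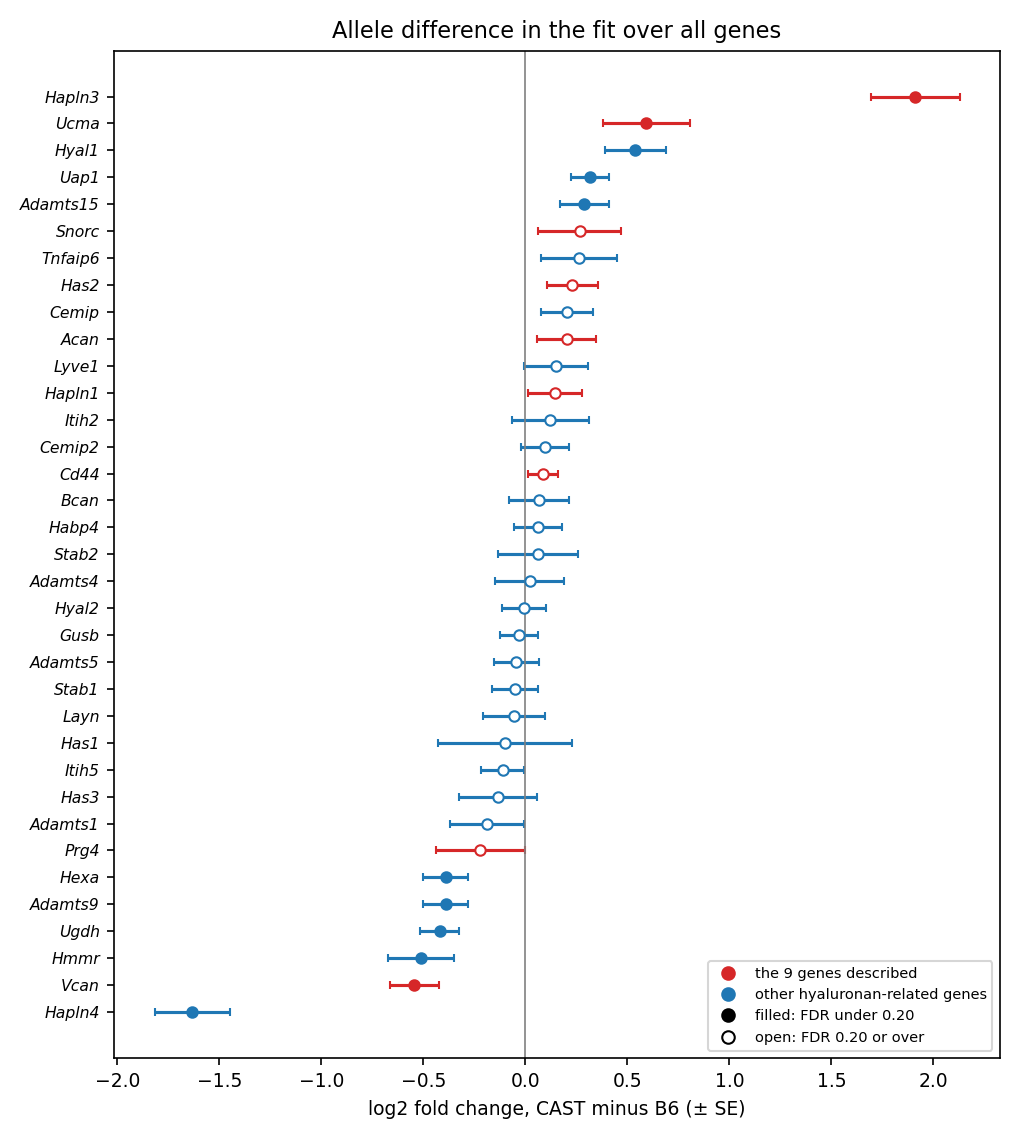
Log2 fold change of CAST over B6 ± SE from the likelihood-ratio fit, for the 9 genes (red) and other hyaluronan-related genes with a mean of at least 100 counts (blue), of which 1 is not shown. Filled points have an FDR under 0.20. Hapln3 at 1.91 and Hapln4 at -1.63 lie at opposite ends.

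Of the receptors and binding proteins, Hmmr was higher from B6 (log2 fold change -0.51, edgeR FDR 0.00973). Stab1 had a log2 fold change of -0.05 (edgeR FDR 0.893). Itih3, a hyaluronan-linked serum protein, was called as higher from CAST on a mean of 23.3 counts. Among the proteases that cut aggrecan and versican, Adamts9 was higher from B6 (-0.39, edgeR FDR 0.0029) and Adamts15 from CAST (0.29, edgeR FDR 0.0693). Like Hyal1, the genes Hmmr, Stab1 and Adamts9 had no whole-number total in any mouse. The part of divided reads in their ratios was not tested. Adamts5 had a log2 fold change of -0.04 (edgeR FDR 0.915). Adamts4 was listed with equal CAST and B6 counts in all 7 mice, so its counts say nothing on the alleles.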

How the data were processed

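Growth plate RNA of 7 male F1 mice, depleted of ribosomal RNA, was sequenced as 2 × 75 bp reads. The authors aligned reads to a joint B6 and CAST transcriptome (Bowtie, SAMtools and mm10 in the submitters' processing notes), allowing 3 mismatches, and deposited estimated counts per gene and allele from EMASE, not normalized. Read ends were handled separately, so a fragment may be counted at both ends.

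Names and positions come from GENCODE release M21 (GRCm38), which holds 42462 of 43346 genes. A gene was tested if, in each mouse, 1 or both of its alleles had a count above 0. Expected counts were rounded and compared in edgeR 4.0.16 under R 4.3.3 (with limma 3.58.1) by estimateDisp, glmFit and glmLRT after TMM scaling, with FDR over all 21805 tested genes and calls at FDR under 0.20. Ratios, levels per exon length and log2 levels of single genes were computed with 0.5 added to counts, and differences were compared by exact two-sided sign-flip permutation tests over the 7 mice. Sign-flip p-values reflect how far the 7 mice agree in sign, and reach the smallest possible, 0.0156, whenever all 7 share it. They do not measure the size of the spread, or a counting bias shared by all mice. The fit without a block sets the allele difference against the spread of counts between these animals. The fits were tested on simulated data. Alternatives were DESeq2 1.42.0, quasi-likelihood tests, the mouse as a block, other library sizes, filters and thresholds, and each mouse left out. Python 3.11.15 with numpy 2.4.6, pandas 2.3.3, scipy 1.17.1 and matplotlib 3.10.9 was used for summaries.

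The 2 alleles of a mouse are paired because they come from the same animal. Among 3302 genes with at least 1000 counts, deviations of the 2 alleles of a mouse correlated at 0.597 to 0.800. Between mice the range was -0.509 to 0.420, with a mean of -0.116. Among the 14526 genes that reached 10 counts in each mouse, the ranges overlapped, at -0.06 to 0.20 within mice and -0.227 to 0.186 between them. The pairing was thus plain in well-counted genes and weak over the wider set. No pair of libraries agreed within sampling noise. Depth was 14098019 to 37849667 counts, and Rn7s1, Rn7s2 and Rn7sk took 15.5% to 23.8% of it.

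Named genes were all 9 genes, genes of the hyaluronan list that were called or had at least 100 counts, the 3 nearest genes in level pattern, and marker genes beside a result. Of the hyaluronan list, 1 gene is counted but not reported here. The genes and lists were chosen with earlier results of these data known. Femur measurements and mapping crosses were not analysed here.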

Additional observations from a re-analysis of the deposited data

How the results depend on the processing

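The count of the 9 genes called was 3 in the likelihood-ratio fit, but 9 once the pairing within mice entered as a replicate block, by the likelihood-ratio test (9), the quasi-likelihood test (9) and with 1 library size per mouse as well (9), the last chosen after seeing the data. Without a block it was 3 under every other setting but 2. Requiring at least 10 counts in every mouse gave 4 and leaving out mouse 3 gave 4, Has2 being added (FDR 0.181 and 0.109), so the range with each mouse left out was 3 to 4. Hapln3, Ucma and Vcan stayed called with each mouse left out (highest FDR 1.23e-12, 0.0782 and 0.000703). No direction reversed.

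The sign-flip p of Has2 became 0.0625 when any mouse but mouse 3 was left out. The listed hyaluronan genes called numbered 12, with 10 to 15 over the settings planned, 11 to 12 with each mouse left out, and 17 with the block and 1 library size per mouse. Genes with whole-number totals alone left 16 of them tested and 4 called. That restriction gave no value for Has2 and Prg4. Among the listed genes called without it, it gave none for Ncan, Hyal1, Hyal3, Ugdh, Uap1, Hmmr or Adamts9. Counts of 87 to 199 per mouse limit Hapln3, and counts of 127 to 325 limit Has2. Leaving out 1 mouse raises the smallest p of the sign-flip test to 0.0312.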
